A study of Mus musculus with 2 samples.

Results

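A set of 10 heat shock and chaperone genes was followed in 2 single-cell libraries of microglia, the macrophages that live in the brain, taken from the mouse hypothalamus. The 10 genes were taken by symbol from the 31053 genes listed in the count tables, and all 10 were found. Of these, 5 were treated as heat-inducible and cytosolic (Hspa1a, Hspa1b, Hsp90aa1, Dnajb1 and Hsph1), 3 as constitutive and cytosolic (Hsp90ab1, Hspa8 and Dnaja1) and 2 as chaperones of the endoplasmic reticulum, or ER (Hspa5 and Hsp90b1). Young wild-type mice had received plasma protein tagged with a dye 20 hours before the cells were taken. Cells of several pooled mice were sorted by fluorescence into microglia that carried the dye (plasma-positive) and microglia that did not (plasma-negative). The sex, exact age and number of the mice were not given in the sources used here. Each sort gave 1 library, so differences have no replicate check, no test was run, and every interval is a 95% interval that covers counting error only.

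Chaperones bind unfolded protein and help it to fold, and they act in families that share a mechanism. HSP70 proteins hold short unfolded stretches, J-domain proteins bring them clients, HSP110 proteins exchange their nucleotide, and HSP90 proteins finish the folding of signalling proteins. On heat or other protein damage the factor HSF1 binds heat shock elements, which are repeats of a short inverted sequence, and induces genes such as Hspa1a, Hspa1b and Dnajb1. Unfolded protein in the ER induces Hspa5 and Hsp90b1 by a separate route, the unfolded protein response, through factors that bind the ER stress element. In microglia these genes are also read as a sign of how cells fared during tissue dissociation and sorting.

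Cells were kept with at least 500 unique molecular identifiers (UMIs, each standing for 1 captured RNA molecule), 300 or more genes, and no more than 10% of their UMIs from mitochondrially encoded genes. This left 9860 plasma-negative cells, which held 34534518 UMIs, and 10362 plasma-positive cells, which held 41984977. Median depth per cell was 3270.5 and 3753 UMIs, and the median mitochondrial share was 1.08% and 1.27%. The label microglia held in both libraries, where the 11 microglia markers examined each had a UMI in at least 64.4% and 68.0% of cells. Of 49 markers of 10 other cell types, 45 and 44 were found in under 1% of cells, and 20 and 17 were at 0. Among the exceptions, Cd79b, a B cell gene, was found in 14.3% and 16.4% of cells, the oligodendrocyte gene Mbp in 7.01% and 8.25%, and the endothelial gene Pecam1 in 6.71% and 6.94%. Levels are given as CPM, the UMIs of a gene per 1000000 UMIs of its library. Only the 3' end of each molecule is counted, so levels can be compared between genes without a length correction.

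The heat-inducible HSP70 genes were barely detected in both libraries, whereas the constitutive and ER chaperones were among the more abundant transcripts. All 10 genes together took 0.331% of UMIs in the plasma-negative and 0.337% in the plasma-positive library. The 2 ER genes made up the greater part, with 0.194% and 0.189% of UMIs. The 3 constitutive cytosolic genes took 0.120% and 0.130%, and the 5 heat-inducible genes took 0.0163% and 0.0174%. Inducible UMIs were thus 0.135 (0.131 to 0.139) of constitutive UMIs in the plasma-negative library and 0.134 (0.131 to 0.137) in the plasma-positive library. Most inducible UMIs came from 1 gene, Hsp90aa1, with 75.8% and 77.7% of them. Without Hsp90aa1 the quotient was 0.0328 and 0.0299, and with Dnaja1, which is also heat-inducible, moved to the inducible side it was 0.332 and 0.321.

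**Figure D1:**
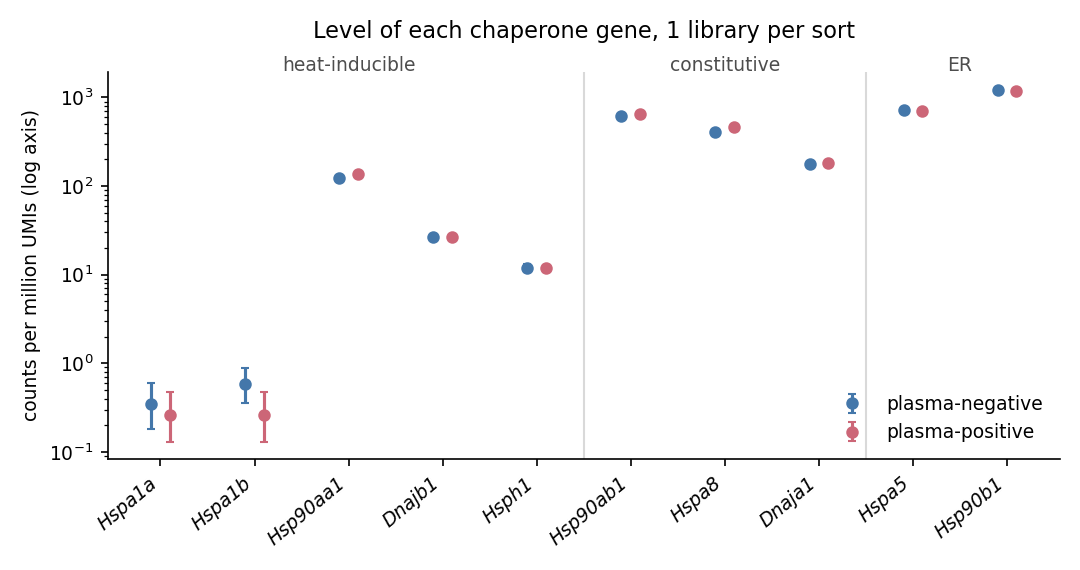
Level of each of the 10 genes in CPM on a log axis, 1 point per library with its exact Poisson interval (hidden by the point where narrow). Hspa1a and Hspa1b lie below 1 CPM in both libraries, Hsp90b1 lies above 1000 CPM in both, and the 2 points of the other genes lie close together.

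The order of the levels was the same in both libraries for the 8 genes above 1 CPM. From high to low it ran Hsp90b1, Hspa5, Hsp90ab1, Hspa8, Dnaja1, Hsp90aa1, Dnajb1 and Hsph1. Counting intervals of neighbours in this order did not overlap within a library, whereas those of Hspa1a and Hspa1b overlapped each other. Among all listed genes ranked by plasma-negative CPM, Hsp90b1 was at rank 85 and Hspa5 at rank 169, and Hspa1b and Hspa1a were at ranks 12076 and 12606. The span between the most and the least abundant of the 10 genes was therefore from the top of the transcriptome to genes with a handful of molecules per library.

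Hspa1a and Hspa1b encode near-identical inducible HSP70 proteins and are the usual marker of a heat shock response. Hspa1a (chromosome 17, 34969190 to 34972156, minus strand; GRCm38, GENCODE M21) had 12 UMIs in the plasma-negative and 11 UMIs in the plasma-positive library, which is 0.347 CPM (0.180 to 0.607) and 0.262 CPM (0.131 to 0.469). Hspa1b (chromosome 17, 34956436 to 34959238, minus strand) had 20 and 11 UMIs, which is 0.579 CPM (0.354 to 0.894) and 0.262 CPM (0.131 to 0.469). Both genes were thus counted by single molecules in either library. A UMI of either gene was present in 27 of 9860 plasma-negative cells (0.274%, 0.181% to 0.398%, exact binomial) and in 22 of 10362 plasma-positive cells (0.212%, 0.133% to 0.321%), and no cell had both. The most in any 1 cell was 3 UMIs. The log2 ratio (plasma-positive CPM over plasma-negative CPM, as in all ratios of the libraries) was -0.41 (-1.73 to 0.90) for Hspa1a and -1.14 (-2.35 to -0.01) for Hspa1b, and at these counts a difference between the libraries could not be resolved for the sum of both, with a ratio of 0.565 (0.313 to 1.00). No cell type that should lack these genes was at hand, so the share of such UMIs that comes from free RNA was not measured.

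The constitutive HSP70 gene Hspa8 had 444 (314 to 649) times as many UMIs as Hspa1a and Hspa1b together in the plasma-negative library and 875 (578 to 1397) times as many in the plasma-positive library. Each of the other 8 members had a higher CPM in cells with a UMI of Hspa1a or Hspa1b than in the other cells, in both libraries, resting on 27 and 22 cells. Over the 27 plasma-negative cells these were 30 UMIs of Hsp90aa1, 8 of Dnajb1 and 3 of Hsph1, and over the 22 plasma-positive cells 22, 4 and 2 UMIs. How many of all genes were likewise higher in these cells was not counted, so the 8 members are not set apart from other genes. The levels that follow rest on few UMIs and are given without intervals. Hsp90aa1 was at 215 CPM in the 27 cells and 123 CPM in the others of that library, and at 181 and 135 CPM in the plasma-positive library. Dnajb1 was at 57.3 and 26.6 CPM in the plasma-negative library, and Hspa8 at 792 and 458 CPM in the plasma-positive library. Hspa5 was at 932 and 715 CPM among plasma-negative cells and at 957 and 709 CPM among plasma-positive cells. The 27 cells were also deeper than the others, with a median of 4182 against 3269 UMIs. In the plasma-positive library the medians were 3760 and 3753 UMIs. Medians do not show the deepest cells, which weigh most in a summed CPM. The 22 plasma-positive cells held 121243 of the 41984977 UMIs of their library. The part of depth in these differences was not tested.

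Hspa1a and Hspa1b are read apart only where their transcripts differ. In GENCODE M21, 58.8% of the 50-base words of the Hspa1a transcript and 62.3% of those of Hspa1b occur in the other gene, but none of the words in the last 500 bases, where 3' libraries are counted, occur in another gene. The upstream 250 bases of both genes are 98.8% identical, with 247 of 250 bases the same. RefSeq promoter windows (build GRCm38.p6) were at hand for 7 of the 10 genes, all but Hsp90aa1, Hsp90ab1 and Hspa8. They were searched on both strands for the 2-unit heat shock element, written GAANNTTC or TTCNNGAA. Of the 7 genes, 4 held a match upstream of a RefSeq start in at least 1 window, while 12.8% of the 32851 mouse windows of this length held one. That share is per window and not per gene. Dnaja1 had 3 windows, with a match in the first alone, and Hsph1 and Dnajb1 had 2 each. The longer form, with 1 more GAA or TTC unit at the same spacing, was in none of the 7 and in 0.466% of all windows. The following stretches are given because they set the barely detected pair Hspa1a and Hspa1b beside 2 more abundant genes with the same kind of match; the capitals mark the match, the first bases lie 150 (Hspa1a and Hspa1b), 135 (Dnaja1) and 44 (Hsph1) bases before the RefSeq start, and every stretch is written 5′ to 3′ on the gene's own strand.
Hspa1a, chr17:34972217-34972306: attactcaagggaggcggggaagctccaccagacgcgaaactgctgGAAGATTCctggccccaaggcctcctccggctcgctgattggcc
Hspa1b, chr17:34959299-34959388: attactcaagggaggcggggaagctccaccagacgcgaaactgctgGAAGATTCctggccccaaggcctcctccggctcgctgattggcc
Dnaja1, chr4:40722333-40722362: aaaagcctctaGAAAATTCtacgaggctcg
Hsph1, chr5:149636351-149636380: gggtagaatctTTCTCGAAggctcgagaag

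Over the stretch printed, Hspa1a and Hspa1b have the same letters. The GENCODE M21 genes of Dnaja1 and Hsph1 begin further upstream than the RefSeq start, so all or most of their stretches lies inside the GENCODE gene, while those of the HSP70 pair lie outside it. The levels of the 4 genes with a match were far apart, from under 1 CPM for the pair to 11.8 CPM for Hsph1 and 178 CPM for Dnaja1 in the plasma-negative library. The windows of Dnajb1, which lies between them in level, held no match. A match of letters is a description and says nothing about binding in these cells.

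Hsp90aa1, Dnajb1 and Hsph1 complete the inducible group. Hsp90aa1 (chromosome 12, 110690605 to 110702728, minus strand), the heat-inducible cytosolic HSP90, had 123 plasma-negative CPM (120 to 127) and 135 plasma-positive CPM (132 to 139). Its log2 ratio was 0.13 (0.08 to 0.19). Dnajb1 (chromosome 8, 83608193 to 83612653, plus strand), a J-domain partner of HSP70, was at 26.7 and 26.4 CPM, from 922 and 1110 UMIs. Hsph1 (chromosome 5, 149614287 to 149636376, minus strand), which encodes HSP110, was at 11.8 and 11.9 CPM, from 409 and 499 UMIs. For Dnajb1 and for Hsph1 the libraries overlapped within counting error, with log2 ratios of -0.01 (-0.14 to 0.11) and 0.01 (-0.19 to 0.20).

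The constitutive cytosolic genes were each a little higher in the plasma-positive library. Hsp90ab1 (chromosome 17, 45567775 to 45573271, minus strand), the constitutive HSP90, had 616 plasma-negative CPM (607 to 624) and 656 plasma-positive CPM (648 to 664), and its log2 ratio was 0.09 (0.07 to 0.12). Hspa8 (chromosome 9, 40800984 to 40810087, plus strand), which encodes the constitutive HSC70, had 411 (404 to 418) and 459 CPM (452 to 465). Its log2 ratio of 0.16 (0.13 to 0.19) was the highest of the 10 genes. Dnaja1 (chromosome 4, 40722150 to 40737149, plus strand), a J-domain partner of HSC70, had 178 (173 to 182) and 184 CPM (180 to 188), and its log2 ratio was 0.05 (-0.002 to 0.10). Constitutive Hsp90ab1 had 4.99 (4.83 to 5.16) times the UMIs of inducible Hsp90aa1 in the plasma-negative library and 4.85 (4.71 to 4.99) times in the plasma-positive library. Dnaja1 had 6.66 and 6.95 times the UMIs of Dnajb1. How reads shared with processed copies were counted was not stated, and the last 500 bases of Hspa8, Dnaja1 and Hsp90aa1 share 68.6%, 39.1% and 24.7% of their 50-base words with other annotated genes (mostly Gm15459, Gm15542 and Gm12346), so these 3 levels are uncertain. Dnaja1 and Hspa1a also overlap genes on the opposite strand, and the use of strand in counting was not stated.

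The ER chaperones were the most abundant of the 10, and the libraries differed by little. Hsp90b1 was slightly lower in the plasma-positive library, while the interval of Hspa5 included no difference. With TMM scaling, a trimmed-mean correction of the library totals, the log2 ratios were -0.01 for Hsp90b1 and 0.02 for Hspa5, so the sign of Hspa5 depended on the scaling. Hsp90b1 (chromosome 10, 86690209 to 86705509, minus strand), which encodes GRP94, the HSP90 of the ER, had 1228 plasma-negative CPM (1217 to 1240) and 1184 plasma-positive CPM (1174 to 1195), and its log2 ratio was -0.05 (-0.07 to -0.03). Hspa5 (chromosome 2, 34771970 to 34777547, plus strand), which encodes BiP, the HSP70 of the ER, had 716 (707 to 725) and 709 CPM (701 to 718), and its log2 ratio was -0.01 (-0.04 to 0.01). The ER pair had 1.42 (1.41 to 1.44) times the UMIs of the 8 cytosolic genes in the plasma-negative library and 1.29 (1.27 to 1.30) times in the plasma-positive library. Both ER genes carried the ER stress element, CCAAT and CCACG separated by 9 bases on either strand, which 0.113% of the 32851 windows held. It is given in capitals because it is what the promoters of the pair have in common; the stretches begin 71 bases (Hspa5) and 220 bases (Hsp90b1) before the RefSeq start (for Hspa5 inside the GENCODE M21 gene, for Hsp90b1 outside it), and Hsp90b1 holds it once in each orientation.
Hspa5, chr2:34772019-34772048: acttcaCCAATCGGAGGCCTCCACGacggg
Hsp90b1, chr10:86705525-86705664: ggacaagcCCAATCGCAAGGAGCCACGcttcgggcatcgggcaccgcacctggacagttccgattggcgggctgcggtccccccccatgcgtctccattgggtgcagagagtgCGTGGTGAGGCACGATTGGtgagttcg

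The log2 ratios of the 6 members that reached 50 CPM lay within the middle 90% of all genes compared, with Hspa8 near its upper edge. Of 3540 genes that reached 50 CPM in 1 or both libraries, 39.0% had a ratio above 1, and among the 6 members at that level 4 did. A level at least 25% higher in the plasma-positive library was found in 0.367% of the 3540 genes and a ratio of at most 0.8 in 0.169%, and none of the 6 members reached either. At 1.5-fold the shares were 0.141% higher and 0% lower, and again no member was among them. So few genes reached these folds that the lack of a member does not set the 6 apart from other genes. The median log2 ratio was 0.07 over the 6 members and -0.03 over all genes compared, whose middle 90% lay between -0.18 and 0.16. Hspa8 was at the 94.8th percentile of these ratios, Hsp90aa1 at the 92.4th, Hsp90ab1 at the 86.4th, Dnaja1 at the 75.5th, Hspa5 at the 55.3rd and Hsp90b1 at the 40.3rd. The split above and below 1 depended on the scaling, since 1939 genes and 5 members were above 1 with TMM scaling, and 1848 genes with a total that leaves out mitochondrial and ribosomal genes, against 1382 genes and 4 members here.

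**Figure D2:**
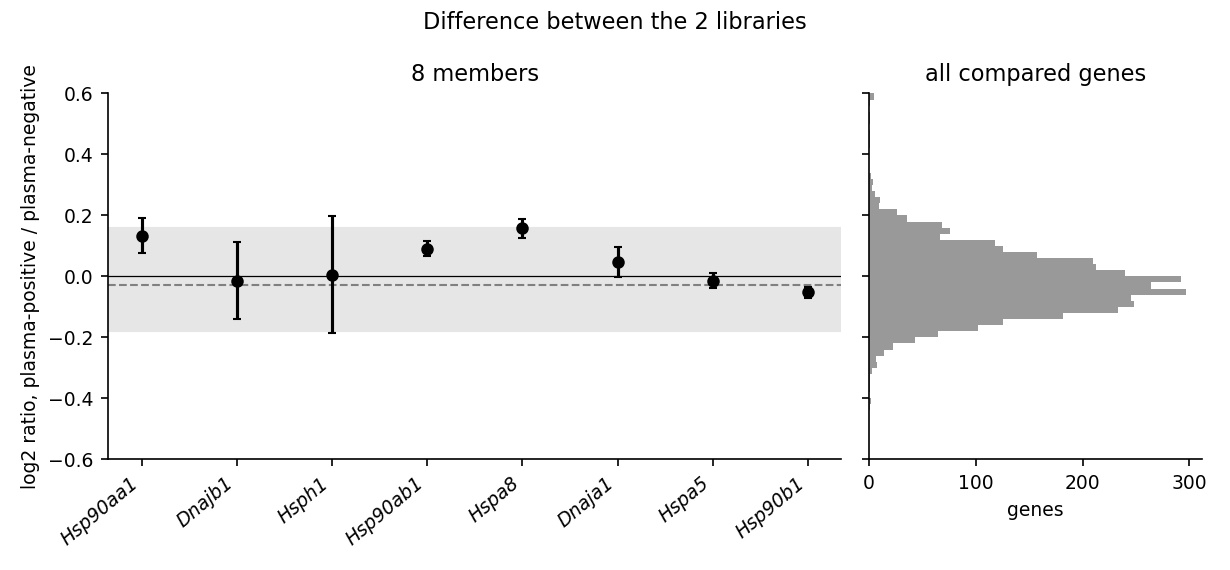
Left, log2 ratio of plasma-positive over plasma-negative CPM for the 8 genes above 1 CPM with exact counting intervals; the grey band holds the middle 90% of the 3540 genes compared, the dashed line is their median, and Dnajb1 and Hsph1 are below the 50 CPM minimum of that comparison. Right, number of those genes per bin of log2 ratio, with ratios beyond 0.6 in the outermost bin; the points of all 8 members lie within the band.

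Summed over groups, the ratio was 1.07 (1.03 to 1.11) for the inducible genes, 1.08 (1.06 to 1.09) for the constitutive genes and 0.974 (0.964 to 0.984) for the ER genes. The plasma-positive cells were deeper, and the summed level of the members was itself higher in deeper cells. The part of depth in the ratios of the libraries was not tested. When each cell was thinned to 1000 UMIs, which leaves out 796 plasma-negative and 603 plasma-positive cells below that depth, the log2 ratio of the inducible sum was 0.02 in place of 0.10. That of the constitutive sum was 0.07 in place of 0.11, and that of the ER sum was -0.03 in place of -0.04. Thinned, Hsp90aa1 had a log2 ratio of 0.06, Hspa8 of 0.10 and Hsp90ab1 of 0.06. In 5 bins of depth with the same bounds for both libraries, from shallow to deep, the ratio of the libraries for Hsp90aa1 was below 1 in the first 3 (0.997 in the shallowest, 0.940 in the middle) and 1.11 and 1.14 in the 2 deepest (1.07 to 1.21 in the last). For the inducible sum it was 0.956, 0.980, 0.936, 1.08 and 1.09, so its direction differed between bins. Hsp90ab1 was at 0.975 in the shallowest and 1.08 in the deepest bin, while Hspa8 was above 1 in all 5 bins, between 1.08 and 1.16.

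Detection followed the levels. After thinning to 1000 UMIs per cell, a UMI of Hsp90b1 was found in 67.4% of plasma-negative cells (66.4% to 68.4%) and 66.6% of plasma-positive cells (65.7% to 67.6%). Hspa5 was found in 47.0% and 47.2%, Hsp90ab1 in 43.6% and 44.3%, Hspa8 in 32.4% and 34.1%, and Dnaja1 in 15.8% and 16.3% of cells. Of the inducible genes, Hsp90aa1 was found in 11.3% (10.6% to 11.9%) and 11.9% (11.3% to 12.5%), Dnajb1 in 2.74% and 2.68%, and Hsph1 in 1.24% and 1.07%. Hspa1a was found in 5 and 4 cells and Hspa1b in 3 and 3 cells. The intervals of the 2 libraries overlapped for each of the 10 genes, for Hspa8 at 31.4% to 33.4% and 33.2% to 35.1%. Such overlap does not show that the shares are equal, and it was not counted over all genes. At full depth the shares were higher and the libraries further apart, with Hsp90aa1 in 29.4% and 34.5% and Hspa8 in 65.1% and 72.2% of cells.

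**Figure D3:**
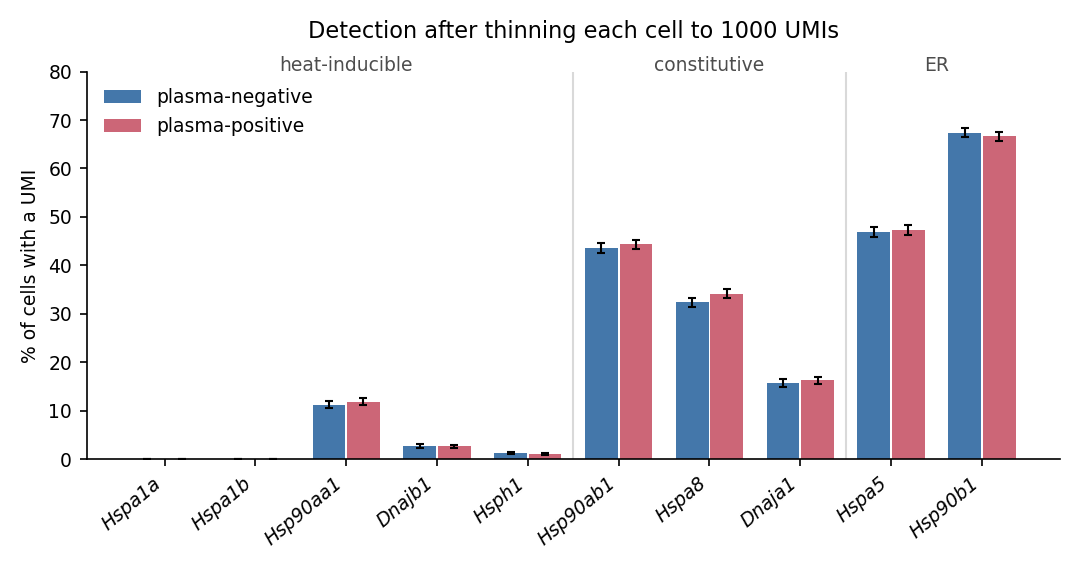
Percent of cells with at least 1 UMI of each gene after every cell was thinned to 1000 UMIs, bars per library with exact binomial intervals (9064 plasma-negative and 9759 plasma-positive cells). The bars fall from about 67% for Hsp90b1 to near 0 for Hspa1a and Hspa1b, and the libraries differ little for every gene.

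At this depth 14.8% and 15.3% of cells held a UMI of any inducible gene, 66.8% and 68.3% of any constitutive gene, and 81.2% and 81.0% of either ER gene. The spread of the UMIs over cells was described on the thinned counts. The thinned variance over the mean, which is near 1 for counts scattered at random, was 1.12 and 1.07 for Hsp90aa1, 1.03 and 1.01 for Dnajb1, 1.16 and 1.19 for Hsp90ab1 and 1.18 and 1.15 for Hsp90b1. Hspa5 had the highest value, 1.26 in both libraries. Thinning draws these values toward 1, so they do not show how evenly the genes were expressed. At full depth, where cells also differ in depth, they were 1.59 and 1.78 for Hsp90aa1 and 3.27 and 3.62 for Hsp90b1. No cell had more than 6 thinned UMIs of Hsp90aa1, and 0.143% and 0.102% of cells had 3 or more.

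Members were found together in a cell about as often as their separate shares give. Over the 28 pairs of the 8 genes above 1 CPM, Pearson's r of thinned counts ran from -0.019 to 0.088 in the plasma-negative and from -0.018 to 0.087 in the plasma-positive library. The highest was that of the ER pair, Hspa5 and Hsp90b1, at 0.088 over 9064 cells and 0.087 over 9759 cells. Both ER genes were present in 3003 plasma-negative cells where 2870 were given by the product of the shares, and in 3208 plasma-positive cells against 3072. These r are weak values across cells that share a library, and they are given as a description.

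Among other genes of the same pathways, those at 50 CPM also differed little between the libraries. There were 10 further lists, some genes standing on more than 1 of them, and Cct6a was not analysed here. The interferon list is described with the cell groups below. In the other lists, none of the genes at 50 CPM was 25% higher or at 0.8 times or less. Of all genes compared, 0.367% and 0.169% reached these limits, and 39.0% had a ratio above 1. Of the HSF1 system, only Hsbp1, a binding protein of heat shock factors, passed 50 CPM, at 143 and 157 CPM with a log2 ratio of 0.14 (0.09 to 0.20). Below that level and chosen after their values were seen, the factors Hsf1 and Hsf2 went the other way. Their ratios were 0.869 (0.795 to 0.951) and 0.862 (0.780 to 0.953). Of 22 other heat-inducible genes, 10 were compared, with 7 ratios above 1, 3 below and a median log2 ratio of 0.03. The polyubiquitin gene Ubb was the most abundant of them at 1148 and 1213 CPM, Hspe1, the mitochondrial cochaperonin, had the highest log2 ratio at 0.15, and Fkbp4, an HSP90 cochaperone, the lowest at -0.13. Chosen after their values were seen, the strongly heat-induced Hspb1 was at 0.521 and 0.548 CPM and Bag3 at 13.5 and 12.96 CPM, and Hsf1 itself was at 27.9 and 24.3 CPM. Cryab, a small heat shock protein, had 52 and 109 UMIs and a ratio of 1.72 (1.23 to 2.45), and Dnajb4 a ratio of 0.930 (0.869 to 0.996).

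Of 17 HSP90 cochaperones, 11 were compared, with 5 above 1 and 6 below, from Ptges3 (p23) at a log2 ratio of 0.12 to Cdc37l1 at -0.18. Over all compared genes 39.0% were above 1, and the counts of the next lists stand beside the same share. Among 14 HSP70 cochaperones, 6 were compared, 4 above and 2 below, from the nucleotide exchange factor Bag1 at 0.17 to Bag5 at -0.07, and St13 was the most abundant at 263 and 270 CPM. Of 17 other J-domain genes, 9 were compared, 4 above and 5 below, from Dnaja2 at 0.06 to Dnajc13 at -0.06, and Dnajb6 was the most abundant at 214 and 210 CPM. Below 50 CPM and chosen after their values were seen, Dnajc9 had 422 and 671 UMIs and a ratio of 1.31 (1.16 to 1.48). Dnajc21 went the other way, with a ratio of 0.903 (0.838 to 0.973). The cytosolic folding complexes TRiC and prefoldin had 8 of 10 genes above 1, where 1382 of the 3540 genes compared were above 1 here and 1939 with TMM scaling. Pfdn5 was the most abundant at 378 and 406 CPM, Pfdn1 the highest in log2 ratio at 0.11 and Cct4 the lowest at -0.004. Of 4 mitochondrial chaperone genes compared, 2 were above and 2 below, and Grpel1 was lowest at -0.03.

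Of 27 genes of the unfolded protein response and ER folding, 19 were compared, and 15 of them had a ratio below 1, where 39.0% of all compared genes were above 1. Their median log2 ratio was -0.05, against -0.03 over all genes compared, and with TMM scaling it was -0.0077. Pdia3, a disulfide isomerase of glycoprotein folding, was the most abundant at 956 and 926 CPM, the ER degradation gene Herpud1 had the lowest log2 ratio at -0.19 (-0.24 to -0.14), and Canx, the lectin calnexin, the highest at 0.05 (0.02 to 0.08). None of the 19 was 25% higher or at 0.8 times or less. Below 50 CPM and chosen after their values were seen, Ddit3, a transcription factor of ER stress, was at 40.8 and 32.5 CPM, a ratio of 0.797 (0.740 to 0.860). Trib3, with 42 and 24 UMIs, had a ratio of 0.470 (0.272 to 0.794).

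Genes that dissociation is known to induce were compared in the same way. Of 19 immediate early and dissociation genes, 8 were compared, and all 8 had a ratio below 1, where 39.0% of all compared genes were above 1 and most were thus below. Their median log2 ratio was -0.10. Below 50 CPM and chosen after their values were seen, Klf2 went the other way, with 592 and 965 UMIs and a ratio of 1.34 (1.21 to 1.49), and Ier3 had a ratio of 1.15 (1.00 to 1.32). Rhob, a small GTPase, was the most abundant at 715 and 651 CPM, Jun had the lowest log2 ratio at -0.18 (-0.23 to -0.14) and Zfp36 the highest at -0.04. Chosen after their values were seen, Fos was at 0.261 and 0.691 CPM, Nr4a1 at 0.695 and 0.643 CPM, Dusp1 at 2.14 and 2.95 CPM and Egr1 at 2.75 and 4.41 CPM. Fos, from 9 and 29 UMIs, Dusp1 and Egr1 were thus also higher in the plasma-positive library. Their ratios were 2.65 (1.22 to 6.36), 1.38 (1.03 to 1.86) and 1.60 (1.24 to 2.07). That of Nr4a1 was 0.925 (0.514 to 1.68). Cells were also split by UMIs of the list, thinned to 1000 UMIs per cell. In cells with 2 or more thinned UMIs of the list the inducible sum was 0.90 (0.78 to 1.04) times that in cells with 0 in the plasma-negative library and 1.03 (0.90 to 1.19) times in the plasma-positive library, and all 10 genes together gave 1.02 and 1.00. For Dnajb1 the same ratio was 0.88 (0.61 to 1.29) and 1.48 (1.01 to 2.24). What part dissociation has in the levels was not tested.

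Levels across bins of cells showed what else moved with the members. Cells of both libraries were put into 5 bins of depth with the same bounds for both. From the shallowest to the deepest bin, the CPM of all 10 genes went from 2972 to 3482 in the plasma-negative and from 3009 to 3527 in the plasma-positive library, 1.17 times in each. The inducible sum went from 139 to 178 CPM and from 133 to 195 CPM, that is 1.28 (1.16 to 1.42) and 1.47 (1.31 to 1.65) times. For Hsp90aa1 alone this was 1.34 (1.19 to 1.51) and 1.53 (1.34 to 1.74) times. Across bins of mitochondrial share, the ER sum went from 2021 CPM in the lowest to 1785 CPM in the highest bin of the plasma-negative library, 0.883 (0.859 to 0.907) times, and from 1902 to 1856 CPM in the plasma-positive library, 0.976 (0.951 to 1.00) times. Dnaja1 was lower in the highest mitochondrial bin in both, at 0.829 (0.756 to 0.907) and 0.831 (0.766 to 0.902) times, and Hsp90aa1 was higher in both, at 1.14 times each.

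**Figure D4:**
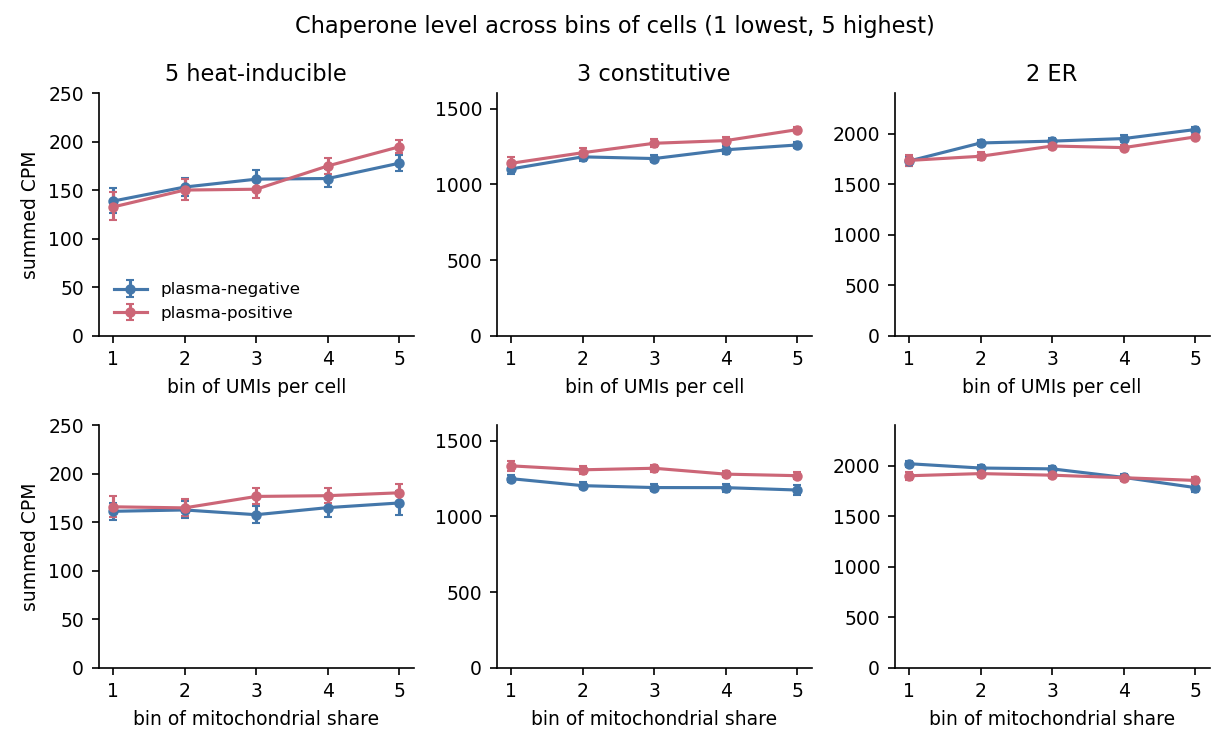
Summed CPM of the inducible, constitutive and ER genes in 5 bins of UMIs per cell (top) and of mitochondrial share (bottom), 1 line per library with exact Poisson intervals. All 3 sums are higher in the deepest than in the shallowest bin, and the constitutive sum of the plasma-positive library lies above that of the plasma-negative library in each bin.

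Cells were next split by UMIs of other genes in the same cell, after thinning to 1000 UMIs, so that each cell gave the same number of UMIs. The depth of the cells before thinning was not matched, and its part in these splits was not tested. Hsp90aa1 was higher in cells with transcripts of the cell cycle in both libraries. A split by 12 genes of DNA replication and mitosis, chosen after the data were seen, put 79 plasma-negative and 141 plasma-positive cells at 2 or more UMIs. In these cells Hsp90aa1 was at 304 CPM (24 UMIs) against 123 CPM in cells with 0, which is 2.47 (1.58 to 3.70) times, in the plasma-negative library. In the plasma-positive library it was at 305 CPM (43 UMIs) against 128 CPM, 2.39 (1.72 to 3.24) times. Cells with 1 such UMI were at 130 and 129 CPM. Constitutive Hsp90ab1 was 1.17 (0.88 to 1.52) and 1.23 (1.01 to 1.48) times as high, Hspa8 0.93 (0.63 to 1.33) and 1.14 (0.89 to 1.44) times, and Hspa5 1.02 (0.77 to 1.32) and 1.06 (0.87 to 1.28) times. Hsp90b1 was 1.46 (1.23 to 1.73) times as high in the plasma-negative and 1.13 (0.97 to 1.31) times in the plasma-positive library. Inducible Dnajb1 was 1.77 (0.48 to 4.59) and 1.89 (0.75 to 3.96) times as high, and Hsph1 0 (0 to 3.59) and 0.67 (0.02 to 3.83) times. How many of all genes differed as much in these cells was not counted. Between the libraries, Hsp90aa1 in these cells had a ratio of 1.00 (0.60 to 1.73). With the cells of highest doublet score removed, the Hsp90aa1 ratios were 2.53 and 2.50.

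Interferon-induced genes differed between the libraries themselves. Ifi27l2a, at 19.5 and 90.9 CPM, and Ifitm3, at 13.1 and 58.1 CPM, were at least 25% higher in the plasma-positive library, while Bst2 was at 176 and 220 CPM. Cells with 2 or more thinned UMIs of the list numbered 452 of 9064 in the plasma-negative and 1049 of 9759 in the plasma-positive library. In the plasma-positive library Hsp90ab1 was at 797 CPM in cells with 2 or more UMIs and 618 CPM in cells with 0, which is 1.29 (1.19 to 1.39) times, and in the plasma-negative library at 602 and 616 CPM, 0.98 (0.86 to 1.10) times. The ratio of the libraries for Hsp90ab1 was accordingly 1.00 (0.96 to 1.05) in cells with 0 interferon UMIs, 1.02 (0.95 to 1.11) in cells with 1, and 1.32 (1.15 to 1.52) in cells with 2 or more. Hsph1, from few UMIs, had ratios of 0.331 (0.039 to 1.23) and 0.482 (0.172 to 1.10). For the ER genes the intervals of this split included 1 in both libraries, with ratios of 0.96 and 1.01 for Hspa5 and 0.96 and 0.99 for Hsp90b1.

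A split by Apoe, which encodes the lipid carrier apolipoprotein E, was also chosen after the data were seen. Cells with 2 or more thinned Apoe UMIs were 285 plasma-negative and 893 plasma-positive cells. The ER sum was lower in them in both libraries and by similar amounts, at 1681 against 1954 CPM in cells with 0 (0.860, 0.784 to 0.942) and at 1648 against 1921 CPM (0.858, 0.813 to 0.905). The constitutive sum was 0.851 (0.755 to 0.956) times that of cells with 0 in the plasma-negative and 1.12 (1.05 to 1.19) times in the plasma-positive library, and Hsp90ab1 was 0.90 (0.77 to 1.06) and 1.16 (1.07 to 1.26) times. Hsp90aa1 was 1.53 (1.14 to 2.01) and 0.97 (0.79 to 1.18) times. Dnaja1 was below 1 in both, at 0.646 (0.443 to 0.912) and 0.899 (0.755 to 1.06) times. Within the Apoe-rich cells, plasma-positive over plasma-negative was therefore 1.36 (1.20 to 1.55) for the constitutive and 0.62 (0.46 to 0.85) for the inducible sum, whereas in cells with 0 Apoe UMIs both were near 1, at 1.04 (1.01 to 1.06) and 1.05 (0.97 to 1.13). These cells come from 1 library per sort, and the difference between the libraries has no replicate check here either.

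**Figure D5:**
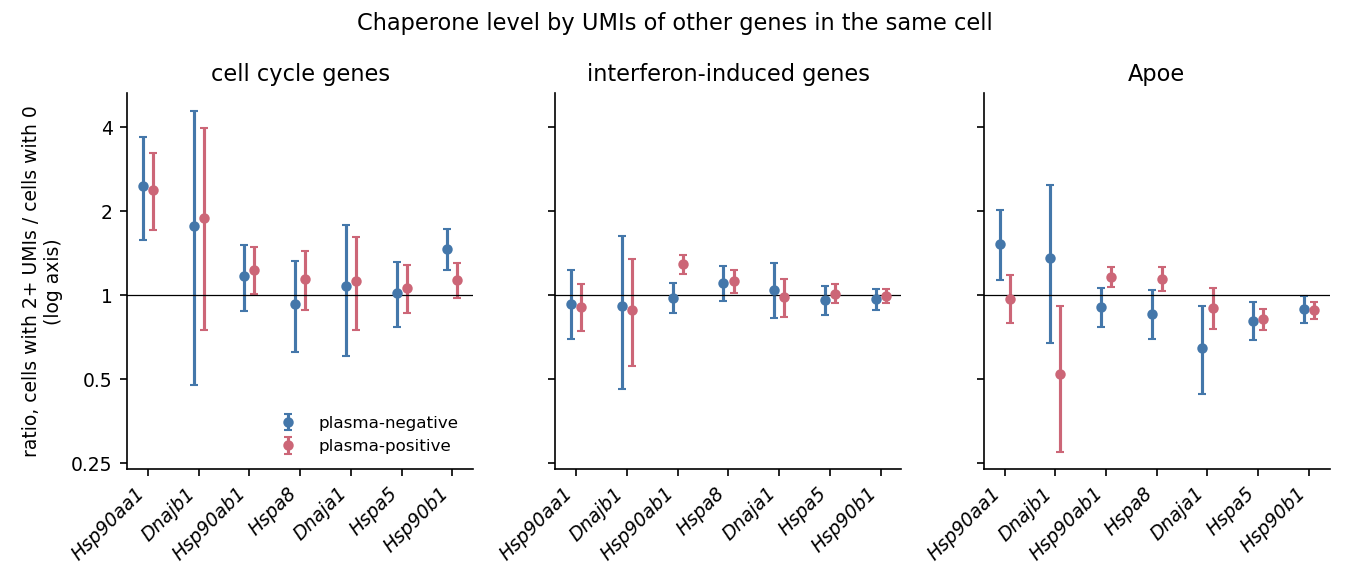
Ratio of CPM in cells with 2 or more thinned UMIs of the named genes to CPM in cells with 0, on a log axis, for 7 members (Hsph1, Hspa1a and Hspa1b have too few UMIs), 1 point per library with exact counting intervals. Hsp90aa1 lies near 2.4 in the cell cycle panel in both libraries, Hsp90ab1 lies above 1 in the interferon and Apoe panels in the plasma-positive library alone, and the ER genes lie below 1 in the Apoe panel in both.

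Genes whose counts most resembled those of the members from cell to cell were ranked by Pearson's r, taking the lower of both libraries, over 3351 genes. On scaled log counts at full depth the leaders were abundant genes, and the part of depth in this order was not tested. Actb, Tmsb4x, Basp1, Tpt1, Rplp1, Fcer1g, B2m, Ppia and Eef1a1 were among the leaders for the inducible sum, with r of at most 0.133. Tmsb4x, Actb, Rplp1, Rps29, Tpt1, Fth1, Rpl37, Pdia3, Eef1a1 and Rpl35a led for the constitutive and ER sum, with r of at most 0.311. On counts thinned to 1000 UMIs, a ranking added after the data were seen, r of Actb with the constitutive and ER sum was 0.026 and 0.036. The leaders were then Pdia3 at 0.083, the lectin chaperone Calr at 0.076, Manf at 0.072, Pdia6 at 0.066, Sdf2l1 at 0.061 and Pdia4 at 0.056, followed by Canx, Fcrls, Dnajb11 and Gapdh. Of these 10 genes, 8 stood on the list of ER folding genes, and 6 genes in all were above 0.05. That list has 27 genes, of which 19 reached 50 CPM in 1 or both libraries, while 3351 genes were ranked. The ER pair gave most of this sum, with 67157 and 79509 UMIs against 41600 and 54507 of the constitutive genes. The pair and the constitutive genes were not ranked apart. For the inducible sum no gene was above 0.05, and Hmgb2, a chromatin protein, led at 0.029, ahead of Ptma, Ube2s, Psma5, Arl6ip1, Ncl, Pdap1, Hspa4, Nop58 and Atp6v1d. All of these r are weak and describe cells that share a library.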

How the data were processed

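Both libraries were made with a droplet 3' kit, per the labels' protocols. The authors deposited raw UMI counts per gene and cell; the matrix header names Cell Ranger 6.1.2 and the submitters' processing notes name Cell Ranger 3.0.1. Genome build, annotation, strand use and how multiply matching reads were counted are not given in the sources used here, and cell barcodes were not used. The members and gene lists were chosen with earlier results of these data known. Named genes are the 10 members, list genes at 50 CPM that were 25% higher or at 0.8 times or less, each list's most abundant, highest and lowest gene, and the 10 genes most like the members. Some genes that this rule names are not reported here. Counts were summed over kept cells, with exact Poisson, conditional binomial and Clopper-Pearson intervals (scipy 1.17.1, numpy 2.4.6). With 1 library per group no model was fitted; edgeR 4.0.16 gave TMM factors as an alternative. Thinning drew 1000 UMIs per cell without replacement (seed 7). Ratio and thinning steps were tested on simulated data. Doublets were kept; Scrublet (scanpy 1.11.5) called 0 cells in both libraries by its automatic threshold, so as an alternative the 778 and 859 highest-scoring cells were removed. GENCODE M21 (GRCm38) gave coordinates and RefSeq the promoters; neither need be the authors' annotation.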

Additional observations from a re-analysis of the deposited data

Results flagged for a closer look

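The summed level of the constitutive genes Hsp90ab1, Hspa8 and Dnaja1 lay on opposite sides of 1 in the libraries when cells with 2 or more Apoe UMIs were set against cells with 0. The ratio was 0.851 (0.755 to 0.956) in the plasma-negative and 1.12 (1.05 to 1.19) in the plasma-positive library, with both intervals away from 1. The difference was not tested, since each sort has 1 library, and the split was chosen after the data were seen. With the cells of highest doublet score removed the ratios were 0.857 and 1.13.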

How the results depend on the processing

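Of 551 values recomputed under other settings, 452 stayed within their counting interval, or for counts within 1.5 times; 99 moved and 0 called ratios reversed. The 66 values of the added alternative, removal of high doublet scores from the cell splits, all stayed within theirs. With a total that leaves out mitochondrial and ribosomal genes, the log2 ratio was 0.044 for all 10 genes, 0.13 for the constitutive and -0.018 for the ER sum. With TMM scaling these were 0.062, 0.15 and 0.00026, Hspa5 had a log2 ratio of 0.02, and 20 genes were at least 25% higher. With each cell thinned to 1000 UMIs the sums of all 10, inducible and constitutive genes were at 0.0082, 0.019 and 0.072, the plasma-negative quotient of inducible to constitutive was 0.139, and 20 genes were at least 25% higher and 24 at 0.8 times or less; Hsph1 was at -0.25. With a mean over cells the plasma-positive quotient was 0.130. A minimum of 10 CPM gave 2985 genes above 1, 78 at least 25% higher and 72 at 0.8 times or less, and 27 and 2 at 1.5-fold, and a minimum of 200 CPM gave 384, 5 and 1, and 2 higher at 1.5-fold. Counting Dnaja1 as inducible gave quotients of 0.332 and 0.321, and leaving out Hsp90aa1 0.0328 and 0.0299. Without thinning, 36.4% and 42.0% of cells held an inducible, 89.6% and 92.5% a constitutive and 94.1% and 95.6% an ER member UMI, and at 2000 UMIs 26.1% and 26.3%, 87.0% and 89.1%, and 95.3% and 94.7%. Dnajb1 lay between -0.05 and 0.02 in log2 ratio over its alternatives, so its sign is not fixed. No paired analysis was possible because a single library stands for each sort. Mice, sorts and library preparations cannot be told apart from the groups, and depth limits Hspa1a and Hspa1b to counts of at most 20 UMIs a library.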
